A study of Mus musculus with 40 samples.

Results

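The passage from naive to primed pluripotency was followed in mouse embryonic stem cells (mES cells) that lack all lamins. It was read as the change from TKO mES cells to TKO epiblast-like cells (EpiLCs), with 4 libraries at each stage. These 8 libraries were chosen by genotype and stage from the 40 of the series, and the same change in WT cells, with 8 libraries at each stage, stood beside it. TKO cells carry deletions of *Lmna*, *Lmnb1* and *Lmnb2*, and WT cells came from a littermate line with intact lamin genes. Both lines are described as XY, and cells were collected at 48 h. The naive medium held LIF and inhibitors of GSK3 and MEK (2i), and the EpiLC medium held 20 ng/mL FGF and 12 ng/mL Activin A in their place. The TKO libraries came from separate wells of 1 line, so p-values measure spread between wells and not between lines. In the tests of genes and TE families, that spread was estimated within groups over all 40 libraries. In WT cells it includes any gap between the sets of libraries described below. Karyotyping by the study found a gained autosome in TKO cells. A part of the WT cells was abnormal too, and a population among them had gained autosomes. Some cells of both lines lacked a Y chromosome. Lamin loss and other differences between the lines therefore cannot be told apart.

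Naive mES cells resemble the epiblast before implantation and rely on transcription factors such as ESRRB, TFCP2L1 and KLF4. When 2i and LIF are replaced by FGF and Activin, these factors are silenced, the de novo DNA methyltransferases rise, and genes such as *Fgf5* and *Otx2* mark the epiblast around implantation. Lamins form the meshwork beneath the inner nuclear membrane, where much of the silent genome is held.

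TKO libraries held 22.6 to 33.6 M counts on genes. TKO EpiLC library 1 stood apart from its group, with 6.07% of its gene counts on ribosomal RNA genes against 3.48% to 4.09% in the other 3 and 2.85% to 3.44% in TKO mES cells. Named differences whose call is lost without it are given both ways. WT libraries 1 to 4 held 25.4 to 33.5 M gene counts and WT libraries 5 to 8 held 39.4 to 48.9 M. The labels name no batch, but some differences from WT depended on which of these sets was used. Where a call was lost against 1 set, or the fold moved by over 1.5 times while the call held, the values are given.

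The targeted genes were lower in TKO than in WT libraries at both stages, and the gap was smallest for *Lmna* in EpiLCs. *Lmnb1*, which encodes lamin B1, read 8.82, 8.28, 8.51 and 8.26 CPM (counts relative to library size, scaled by TMM) in TKO mES cells and 0.927, 1.17, 0.535 and 0.727 CPM in TKO EpiLCs, against 481 to 546 and 498 to 547 CPM in WT cells. *Lmnb2* read 3.96 to 4.71 and 1.68 to 3.37 CPM in TKO cells, against 93.2 to 116 and 89.8 to 102 CPM in WT cells. *Lmna*, which encodes the A-type lamins, read 14.1 to 17 and 7.36 to 8.34 CPM in TKO cells, against 45.1 to 71.5 and 9.28 to 13 CPM in WT cells. TKO and WT libraries did not overlap at either stage for the 3 genes.

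Naive and EpiLC markers followed the labelled stages. The summed level of 7 naive markers went from 4730 to 4970 CPM in TKO mES cells to 144 to 171 CPM in TKO EpiLCs, and all of them fell. All 8 EpiLC markers rose, to a sum of 3530 to 3810 CPM. They include *Fgfr2*, which did not rise in WT cells and which the paper names as a primitive endoderm marker. Markers of other cells were low. They summed to 6.14 to 6.78 CPM before and 19 to 22.6 CPM after the passage for primitive endoderm, to 1.39 to 1.98 and 3.41 to 6.22 CPM for trophectoderm, and to 3.54 to 4.57 and 20.9 to 21.5 CPM for fibroblasts. Neural markers summed to 9.72 to 11.1 and 46.4 to 58.2 CPM, and mesendoderm markers to 6.3 to 8.25 and 2.07 to 2.9 CPM. Of those tested, 3 of 7 primitive endoderm, 2 of 5 trophectoderm, 3 of 3 neural and 5 of 6 fibroblast markers rose. Falls were called for 1 primitive endoderm, 2 trophectoderm and 1 mesendoderm marker. Over all genes, 17.2% rose and 13.1% fell in TKO cells. In WT cells, sums were 8.36 to 10.9 CPM before and 13.4 to 17.7 CPM after the passage for primitive endoderm. Those of neural markers were 7.95 to 12.3 and 23.5 to 44.3 CPM, and of fibroblast markers 5.25 to 6.99 and 19.8 to 26.2 CPM. There, trophectoderm markers summed to 2.84 to 5.0 and 3.51 to 4.25 CPM, and mesendoderm markers to 6.11 to 8.46 and 1.85 to 2.78 CPM. In bulk RNA, fewer cells of a type and less RNA per cell cannot be told apart.

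The promoters of the marker genes *Fgf5*, *Sox11* and *Fgfr2*, and of *Uggt2*, which had the lowest difference among the named genes, are shown. All 4 genes had a called difference from WT. The 250 bases before the first start listed for each gene come from RefSeq (GRCm38.p6, a different build from the counts), and capitals mark CpG dinucleotides. Other starts of these genes were not examined. They lie at chr5:98253934-98254183 on the plus strand and at chr12:27342719-27342968, chr7:130266809-130267058 and chr14:119099435-119099684 on the minus strand.
Fgf5: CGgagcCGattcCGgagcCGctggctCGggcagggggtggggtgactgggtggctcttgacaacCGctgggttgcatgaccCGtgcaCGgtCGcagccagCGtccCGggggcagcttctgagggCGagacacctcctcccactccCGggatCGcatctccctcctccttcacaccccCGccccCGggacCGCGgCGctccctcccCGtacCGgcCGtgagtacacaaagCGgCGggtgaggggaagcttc
Sox11: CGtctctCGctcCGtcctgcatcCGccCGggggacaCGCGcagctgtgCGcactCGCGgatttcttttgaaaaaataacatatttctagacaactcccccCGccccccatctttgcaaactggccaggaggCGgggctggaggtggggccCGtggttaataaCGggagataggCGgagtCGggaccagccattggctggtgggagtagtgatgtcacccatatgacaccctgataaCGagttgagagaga
Fgfr2: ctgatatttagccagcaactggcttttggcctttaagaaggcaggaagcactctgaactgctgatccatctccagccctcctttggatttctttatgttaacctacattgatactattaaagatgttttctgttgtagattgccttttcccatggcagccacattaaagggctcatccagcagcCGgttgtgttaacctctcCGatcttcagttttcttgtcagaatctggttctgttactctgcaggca
Uggt2: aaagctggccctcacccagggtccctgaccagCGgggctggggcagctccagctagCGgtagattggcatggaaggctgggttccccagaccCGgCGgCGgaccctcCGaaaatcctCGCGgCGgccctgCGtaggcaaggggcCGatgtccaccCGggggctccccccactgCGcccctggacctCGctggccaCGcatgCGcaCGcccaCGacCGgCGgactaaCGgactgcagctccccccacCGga
CpG dinucleotides numbered 24 at *Fgf5*, 17 at *Sox11*, 2 at *Fgfr2* and 22 at *Uggt2*. The POU octamer (ATGCAAAT) and the OTX2 core (TAATCC) were searched on both strands of the listed windows, which add the first bases of the transcript. Neither was found at these 4 genes, and 1.75% and 7.16% of all listed promoters held them.

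Most genes that moved in TKO cells also moved in WT cells. Of 23399 genes tested, 4036 rose (17.2%) and 3057 fell (13.1%) in TKO cells by more than 2-fold at an adjusted p under 0.05 in edgeR, together 30.3% of genes. In WT cells 4270 rose (18.2%) and 3007 fell (12.9%), together 31.1%. The 3374 genes that rose in both were 83.6% of the TKO and 79% of the WT rises. The 2421 that fell in both were 79.2% of the TKO and 80.5% of the WT falls. Opposite calls were made for 9 genes that rose in TKO and 8 that fell in TKO. Across genes, which are not replicates, the log2 fold changes of the passages had a Pearson r of 0.912 and a Spearman rho of 0.858.

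**Figure D1:**
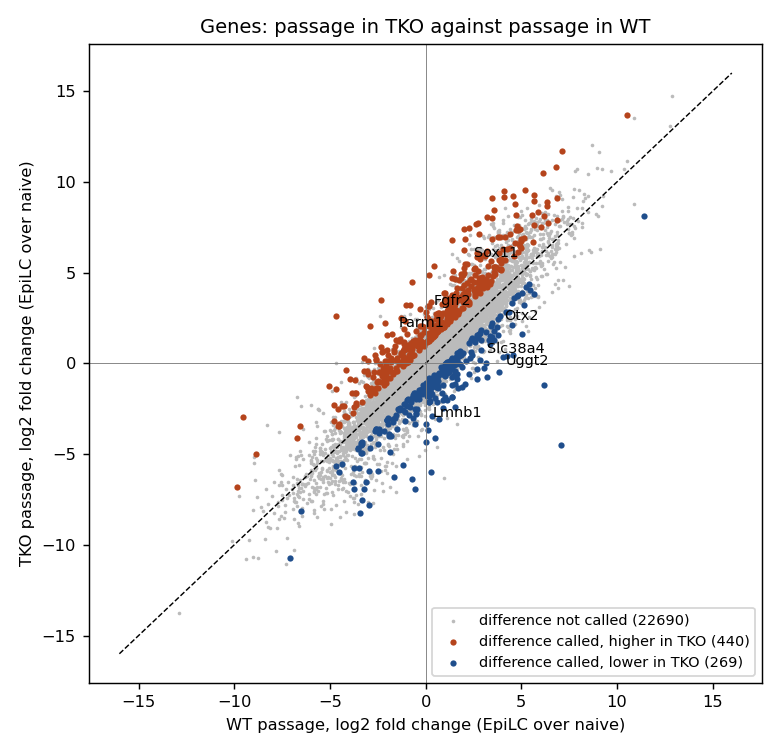
Each point is a gene, with the log2 fold change from mES cells to EpiLCs in WT on the horizontal axis and in TKO on the vertical axis. The dashed line marks equal change, and the coloured points are the 440 genes with a called higher and the 269 with a called lower passage in TKO.

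The genes named for the highest rises started from 0 to 2 reads over the 4 TKO mES libraries. *Car4*, a membrane-bound carbonic anhydrase, had 0 reads there and 96.2, 99.5, 86.6 and 109 CPM in TKO EpiLCs, at least 3930-fold higher against a floor of 3 reads over the group. *Fgf5* (chr5:98402043-98424889 on GRCm39), a growth factor of the epiblast, went from 1 read to 154, 152, 156 and 169 CPM. *Enpp2*, which encodes autotaxin, rose at least 1630-fold, to 36.7 to 45.9 CPM. By the same bound *Tmem54* rose at least 1190-fold, *Rasef* 591-fold, *Rbbp8nl* 468-fold, *Gpm6a* 458-fold, *Dcn* 328-fold and *Kynu* 246-fold. *Galnt3*, an enzyme that starts O-glycans, rose 2180-fold (604 to 18000) from 2 reads, with the exact 95% interval in parentheses. Floors and intervals cover counting error only. These 10 genes also rose in WT cells.

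Among the largest falls, *Spic* read 47.3, 48.1, 48.4 and 48.9 CPM in TKO mES cells and had 0 reads in TKO EpiLCs, at least 1770-fold lower. *Sgcz*, *Srarp* and *Vax2os* also fell to 0 reads, at least 271, 230 and 219-fold. *Prdm14*, a repressor that guards the naive state, fell 1840-fold (629 to 8910) to 3 reads. *Pramel6*, *Osm* and *Elobl* fell 1050-fold (291 to 8710), 974-fold (269 to 8040) and 531-fold (147 to 4390) to 2 reads each. *Crxos* and *Pramel30* fell by 9.75 ± 0.17 (SE) and 8.99 ± 0.3 on the log2 scale. All 10 fell in WT cells too, and *Vax2os* had the only called difference between the passages. *Pramel* genes have close copies, and reads without a unique alignment were not counted.

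All 14 naive pluripotency genes fell in TKO cells, with a median log2 fold change of -5.08 beside 0.05 over all genes, and all fell in WT cells, with a median of -4.87. Of all genes, 13.1% fell in TKO and 12.9% in WT cells. *Tfcp2l1* read 1840, 2050, 1930 and 2020 CPM in TKO mES cells and 13.8, 15.3, 13.9 and 16.9 CPM in TKO EpiLCs. *Esrrb* went from a mean of 889 to 10.3 CPM, and *Nanog* from 827 to 85.8 CPM. Libraries of the stages did not overlap for these 3 factors, and 25.4% of all genes were likewise lower in TKO EpiLCs without overlap. *Dppa3*, which restrains maintenance methylation, was the list's member with a called difference. It fell by 3.18 ± 0.25 in TKO and by 4.78 ± 0.19 in WT cells, a difference of 1.6 ± 0.31 (adjusted p = 2.9e-04). Among core factors *Sox2* fell from 317 to 60.8 CPM, and *Pou5f1* read 342 and 409.9 CPM.

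All 13 formative and primed genes rose in TKO and in WT cells, with medians of 3.62 and 4.04, where 17.2% and 18.2% of all genes rose. *Pou3f1*, a POU factor of the epiblast, went from a mean of 0.898 to 301 CPM in TKO cells. The de novo methyltransferase genes *Dnmt3a* and *Dnmt3b* rose from 46.5 to 699 CPM and from 151 to 2650 CPM. *Otx2* (chr14:48895134-48911276), a homeobox factor of formative enhancers, read 17.3, 18, 17.5 and 17.4 CPM before and 60.8, 75.1, 71.8 and 72.5 CPM after the passage in TKO cells. In WT cells it ranged from 2.69 to 17.4 CPM (median 8.38) before and 92.6 to 152 CPM (median 118) after. TKO EpiLCs lay below all WT EpiLCs, and the mES libraries overlapped. The difference was -1.74 ± 0.41 (adjusted p = 0.0041), with -3.34 against WT libraries 5 to 8 and -0.87 against libraries 1 to 4, which was not called. *Sox3*, a SOXB1 factor, rose from 0.463 to 74.2 CPM in TKO and from 2.15 to 58.1 CPM in WT cells, a difference of 2.63 ± 0.38 (adjusted p = 2.3e-06). *Grhl2*, an epithelial factor, differed by -1.01 ± 0.15, and its call was lost without TKO mES library 3 or TKO EpiLC library 1 (-0.95) and with WT libraries 1 to 4 (-0.85).

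The marker genes rose further in TKO cells, from a lower start. *Sox11* (chr12:27384263-27392573), a SOXC factor, read 2.71, 2.46, 1.94 and 1.9 CPM in TKO mES cells and 108, 95.2, 100.0 and 100.0 CPM in TKO EpiLCs. In WT cells it ranged from 17.3 to 31.9 CPM (median 23.6) before and 98.5 to 119.6 CPM (median 110.0) after. The genotypes overlapped in EpiLCs and not in mES cells. It rose by 5.48 ± 0.17 in TKO and by 2.17 ± 0.09 in WT cells, a difference of 3.32 ± 0.19 (adjusted p = 5.0e-17). *Fgfr2*, a receptor for FGF, is listed at chr7:129764181-132725079, a span whose far end is reached by 1 of its 48 transcripts in GENCODE M39, while the others end by 129868272. It read 1.49, 1.61, 2.45 and 1.83 CPM before and 11, 12.6, 14.3 and 15.2 CPM after the passage in TKO cells. In WT cells it ranged from 7.43 to 10.3 CPM before and 7.0 to 11.7 CPM after, and the stages overlapped. It rose by 2.84 ± 0.2 in TKO cells and changed by 0.04 ± 0.12 in WT cells, a difference of 2.8 ± 0.23 (adjusted p = 4.2e-12). *Fgf5* ranged from 132 to 157 CPM in WT EpiLCs. Its passage differed too (adjusted p = 0.0045), which rests on 1 read in TKO and 28 reads in WT mES cells, a ratio of 11.4 with a lower 95% bound of 1.89.

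**Figure D2:**
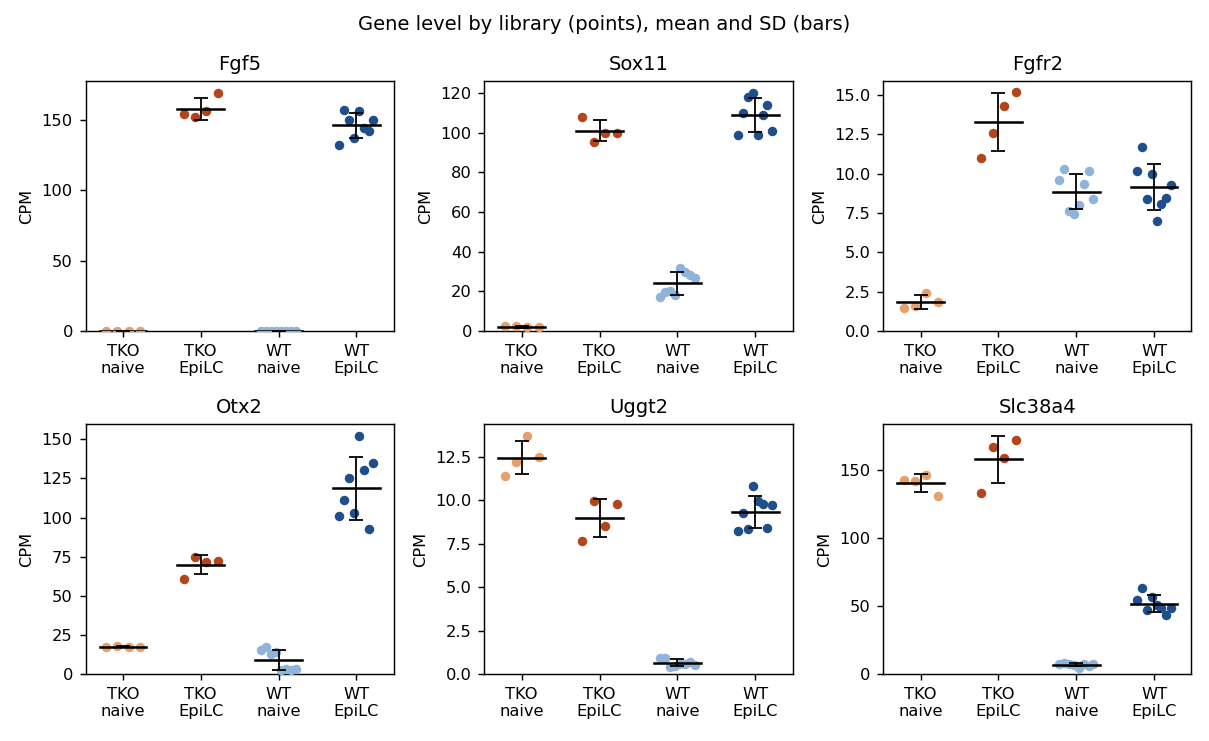
Points are single libraries in CPM, by genotype and stage, with the mean and SD. *Sox11* and *Fgfr2* lie lower, and *Uggt2* and *Slc38a4* higher, in TKO than in WT mES cells.

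Of 15 genes of FGF and ERK signalling, 8 rose in TKO cells, and 4 rose and 1 fell in WT cells, against 17.2% of all genes that rose in TKO and 18.2% in WT cells. The median log2 fold changes were 1.19 and 0.45. Called differences were 3 of 15, against 3.03% of all genes, and were *Fgfr2*, *Dusp4* and *Fos*. *Dusp4*, a phosphatase that restrains ERK, read 2.18, 2.71, 2.47 and 2.12 CPM before and 195, 190.0, 202 and 201 CPM after the passage, and differed from WT by 1.95 ± 0.47 (adjusted p = 0.0046). *Dusp6* and *Spry4*, further feedback inhibitors, rose by 5.16 ± 0.36 and 4.43 ± 0.39, and their differences from WT were called with WT libraries 5 to 8 but not with all. *Fos*, an immediate-early gene, differed by 2.24 ± 0.69 (adjusted p = 0.034), and its call was lost without TKO mES library 2, 3 or 4 or TKO EpiLC library 1 (2.1, adjusted p = 0.074) or 4 and with WT libraries 1 to 4 (0.78, adjusted p = 0.29).

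Of 9 genes of the LIF pathway, 1 rose and 4 fell in TKO cells, and 4 fell in WT cells. Over all genes, 17.2% rose and 13.1% fell in TKO cells, and 12.9% fell in WT cells. The receptor genes *Lifr* and *Il6st*, the factor *Stat3* and the inhibitor *Socs3* fell in both genotypes. *Stat3* went from a mean of 152 to 21.3 CPM in TKO cells. *Gbx2*, a target of STAT3, rose from 6.5 to 27 CPM in TKO cells and differed from WT by 1.41 ± 0.38 (adjusted p = 0.012), and its call was lost with WT libraries 1 to 4 (0.46, adjusted p = 0.069). Of 12 WNT targets, 3 rose and 4 fell in TKO cells, and 3 rose and 6 fell in WT cells, where 30.3% and 31.1% of all genes were called. *Lef1* rose from 1.4 to 128 CPM and *Axin2* fell from 53.2 to 14.5 CPM in TKO cells. *Cdx1* differed by 2.57 ± 0.76, and its call was lost without TKO EpiLC library 1 (2.33, adjusted p = 0.12). The list's median difference was 0.91, with -0.11 against WT libraries 1 to 4 and 1.43 against libraries 5 to 8. Of 10 genes of the Nodal and Activin pathway, 4 rose in TKO and 4 in WT cells, against 17.2% and 18.2% of all genes. Among them *Lefty1*, a Nodal inhibitor, rose from 18.4 to 134 CPM in TKO cells.

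Of 11 neural genes, 8 rose and 1 fell in TKO cells, and 8 rose and 1 fell in WT cells, and 4 had a called higher passage in TKO. Over all genes 17.2% rose and 13.1% fell in TKO cells, 18.2% rose and 12.9% fell in WT cells, and 1.88% had a called higher passage, and the counts of the further lineage lists stand against these shares. *Pax6* rose from 0.234 to 5.04 CPM in TKO and from 1.26 to 5.69 CPM in WT cells, a difference of 2.25 ± 0.37 (adjusted p = 2.5e-05), and *Neurod1* differed by 1.54 ± 0.18. *Sox21* fell less in TKO cells, a call that was lost with WT libraries 5 to 8 (0.99). Of 18 primitive endoderm genes, 9 rose and 4 fell in TKO cells, and 8 rose and 5 fell in WT cells. *Lamb1*, a laminin chain, rose from 14 to 268 CPM in TKO and from 31.4 to 272 CPM in WT cells, and its called difference of 1.15 ± 0.12 was lost with WT libraries 1 to 4 (1.0). *Dab2*, an endocytic adaptor, differed by 2.26 ± 0.31 (adjusted p = 1.3e-06), and *Cubn*, an endocytic receptor, by 1.82 ± 0.45, the latter lost with WT libraries 1 to 4 (1.14, adjusted p = 0.16). *Gata6*, which defines primitive endoderm, reached 0.421 to 0.675 CPM in TKO EpiLCs. Of 12 trophectoderm genes, 3 rose and 5 fell in TKO cells, and 2 rose and 7 fell in WT cells. Of 13 mesendoderm genes, 5 rose and 2 fell in TKO cells, and 4 rose and 4 fell in WT cells. The ligand genes *Wnt6* (1.67 ± 0.43) and *Wnt8a* had a called higher passage in TKO, the latter lost with WT libraries 1 to 4 (1.13, adjusted p = 0.57). Of 12 genes of the 2-cell-like state, 10 rose in TKO cells, and 12 rose in WT cells. Most of these genes are *Zscan4* and *Usp17l* copies, and reads without a unique alignment were not counted. Levels were near the floor. *Zscan4a* to *Zscan4f* each had 0 or 1 reads over the TKO mES libraries and 20 to 91 reads, or 0.182 to 0.827 CPM, over the TKO EpiLC libraries.

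Of 30 imprinted genes, 16 rose and 2 fell in TKO cells, and 21 rose and 2 fell in WT cells, where 17.2% of all genes rose and 13.1% fell in TKO cells. *Slc38a4*, an amino acid transporter, read 143, 142, 146 and 131 CPM in TKO mES cells and 133, 167, 159 and 172 CPM in TKO EpiLCs. In WT cells it ranged from 5.01 to 8.16 CPM before and 43.6 to 63.4 CPM after, below TKO at both stages. Its change of 0.17 ± 0.1 in TKO cells was not called, and the difference was -2.69 ± 0.13 (adjusted p = 7.0e-19). *Peg10*, derived from a retrotransposon, and the noncoding *H19* rose further in TKO, by 2.25 ± 0.37 and 3.08 ± 0.56. Of 21 antiviral genes, 3 rose and 9 fell in TKO cells, and 4 rose and 9 fell in WT cells, a list with more falls than rises in both genotypes. *Bst2*, which tethers virions, rose from 13.3 to 79.2 CPM in TKO cells, a difference from WT of 1.24 ± 0.2 (adjusted p = 3.1e-05). *Tdrd1*, a Tudor protein of the piRNA pathway, differed by 1.94 ± 0.39.

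Of 16 nuclear envelope genes, 1 rose and 4 fell in TKO cells, and 1 fell in WT cells. That is near the 30.3% of all genes called in TKO cells and below the 31.1% called in WT cells, so the TKO count is no result about the list. *Sun1*, *Sun2* and *Syne2*, which link the nucleus to the cytoskeleton, fell by 1.07 ± 0.06, 1.33 ± 0.1 and 1.33 ± 0.15 in TKO cells. Their changes in WT cells, -0.9 ± 0.04, -0.89 ± 0.07 and -0.8 ± 0.1, were under 2-fold, and the differences were not called. *Syne1* rose from 3.65 to 8.29 CPM in TKO cells, and its called difference of 1.15 ± 0.21 was lost with WT libraries 1 to 4 (0.98). Of 14 adhesion and epithelial genes, 5 rose and 4 fell in TKO cells, and 5 rose and 5 fell in WT cells. *Epcam*, an epithelial adhesion molecule, rose from 27.7 to 207 CPM in TKO cells. *Fn1*, or fibronectin, fell from 1923 to 240.3 CPM, and its called difference of -1.02 ± 0.12 was lost without TKO EpiLC library 1 (-0.92) and with WT libraries 1 to 4 (-0.82). Of 20 p53 targets, 5 rose and 1 fell in TKO cells, and 2 rose and 2 fell in WT cells, in TKO cells again near the share of all genes. *Perp*, a desmosome protein and p53 target, differed by 1.09 ± 0.15.

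The passages differed in 709 genes, 3.03% of those tested, with 440 higher (1.88%) and 269 lower (1.15%) in TKO. Of these, 232 were also called higher, and 117 lower, against each WT set alone. Without TKO EpiLC library 1, 391 of the higher and 192 of the lower genes were still called. Of the 440, 342 were called lower in TKO than in WT mES cells and 39 higher in EpiLCs, with median gaps of -1.57 and 0.11. Of the 269, 127 were called higher in TKO mES cells and 57 lower in TKO EpiLCs, with median gaps of 0.997 and -0.67. Over all genes, 6.45% differed between genotypes in mES cells (2.68% higher, 3.77% lower in TKO) and 2.91% in EpiLCs (1.44% and 1.48%). The stage gaps share their libraries with the difference and only describe where it lies.

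**Figure D3:**
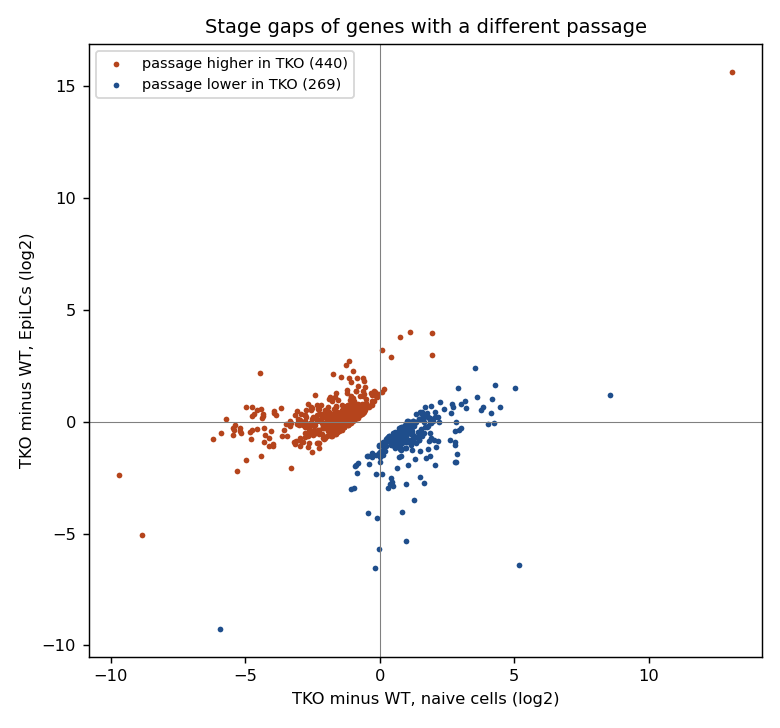
Each point is a gene with a called difference, with the log2 gap between TKO and WT in mES cells on the horizontal axis and in EpiLCs on the vertical axis. Genes with a higher passage have a median gap of -1.57 in mES cells and 0.11 in EpiLCs.

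Among the higher differences, *Irx3*, a homeobox factor, read 0.231, 0.179, 0.0884 and 0.0731 CPM in TKO mES cells and 9.75, 4.97, 6.27 and 5.18 CPM in TKO EpiLCs, above the 1.16 to 2.7 CPM of WT EpiLCs. Its difference was 3.42 ± 0.47 (adjusted p = 1.3e-06). *Vrtn* read 0.11 to 0.297 CPM before and 114 to 119 CPM after, a difference of 3.27 ± 0.55 that was 1.5 against WT libraries 1 to 4 and 3.89 against libraries 5 to 8. *Arhgef5*, a guanine nucleotide exchange factor, differed by 3.25 ± 0.26 and *Cyyr1* by 3.39 ± 0.54. *Parm1* rose in TKO cells, from 0.76, 0.964, 0.707 and 1.17 CPM to 1.85, 2.77, 2.83 and 3.36 CPM, and fell in WT cells, from a median of 15.5 to 4.6 CPM. *H2-T5*, *Khdc1c*, *Rbbp8nl* and *Galnt3* also had a called higher passage, each resting on a group with 0 to 3 reads, and the call of *Khdc1c* was lost without TKO EpiLC library 3.

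Among the lower differences, *Uggt2* (chr14:119222451-119336842), which encodes a relative of the glucosyltransferase that senses misfolded glycoproteins, read 11.4, 12.2, 13.7 and 12.5 CPM in TKO mES cells and 7.64, 9.98, 8.53 and 9.81 CPM in TKO EpiLCs. In WT cells it rose from 0.446 to 0.966 CPM (median 0.593) to 8.21 to 10.8 CPM (median 9.5). The genotypes overlapped in EpiLCs and not in mES cells, and the difference was -4.29 ± 0.19 (adjusted p = 1.6e-20). *Snap91*, a clathrin adaptor, read 9.68, 10.4, 9.05 and 7.42 CPM before and 0.927, 1.24, 0.803 and 1.54 CPM after, and differed by -2.33 ± 0.21. *Clgn*, *Sh2d4a* and *Dcdc2a* differed by -2.08 ± 0.2, -2.12 ± 0.31 and -3.45 ± 0.77. *Hal* differed by -2.7 ± 0.69, and its call was lost with WT libraries 5 to 8 (-2.37, adjusted p = 0.07). *Vax2os* (adjusted p = 0.0497) lost its call without TKO mES library 1, 2 or 4 or TKO EpiLC library 1 (adjusted p = 0.1), 2, 3 or 4 and with WT libraries 1 to 4 (adjusted p = 0.25). By chromosome, the median difference lay between -0.05 and 0.03 on the autosomes and X and was -0.41 over 14 Y genes. A gap between genotypes that is equal at both stages cancels in this difference, so these medians cannot show a gained chromosome.

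Among families of transposable elements (TEs), more fell than rose in TKO cells. Of 1142 families tested, 14 rose (1.23%) and 48 fell (4.2%) in TKO cells, together 5.43%, and 24 rose (2.1%) and 23 fell (2.01%) in WT cells, together 4.12%. All 23 that fell in WT cells fell in TKO cells, which was 47.9% of the TKO falls, and 9 rose in both. Of the 25 that fell in TKO cells and were not called in WT cells, 4 had a called difference. The median log2 fold change over families was -0.08 in TKO and 0.15 in WT cells, with a median difference of -0.23. The balance in WT cells depended on the set used. With WT libraries 5 to 8, 9 families rose and 29 fell, and with WT libraries 1 to 4, 26 rose and 23 fell. With scaling from TE families alone, 21 rose and 42 fell in TKO cells, 19 rose and 33 fell in WT cells, and 3 were higher and 8 lower in the difference. LTR elements, the remains of endogenous retroviruses, made up 43 of the 48 falls, 27 of them of the ERVK type, and 603 of the 1142 families tested were LTR elements, 274 of them ERVK. *RLTR13B2* read 29.3, 27.8, 31.1 and 31.6 CPM in TKO mES cells and 2.11, 2.01, 1.67 and 2.17 CPM in TKO EpiLCs and fell by 3.91 ± 0.2 on the log2 scale. *MER34-int*, *RLTR10D2*, *RLTR45-int* and *ERVB4_2-I_MM* fell by 3.51, 3.11, 2.97 and 2.49. Of 25 IAP families, 8 fell in TKO and 2 in WT cells, with no called difference between the passages. *MMETn-int*, an ETn family, rose in both, from a mean of 2720 to 5695 CPM in TKO cells. *RLTR13G* and *RLTRETN_Mm* rose by 1.46 and 1.12, and by 0.92 and 0.75 without TKO EpiLC library 1, under 2-fold. Without that library 10 families rose, 8 of them among the 14, and 43 fell, 41 of them among the 48.

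**Figure D4:**
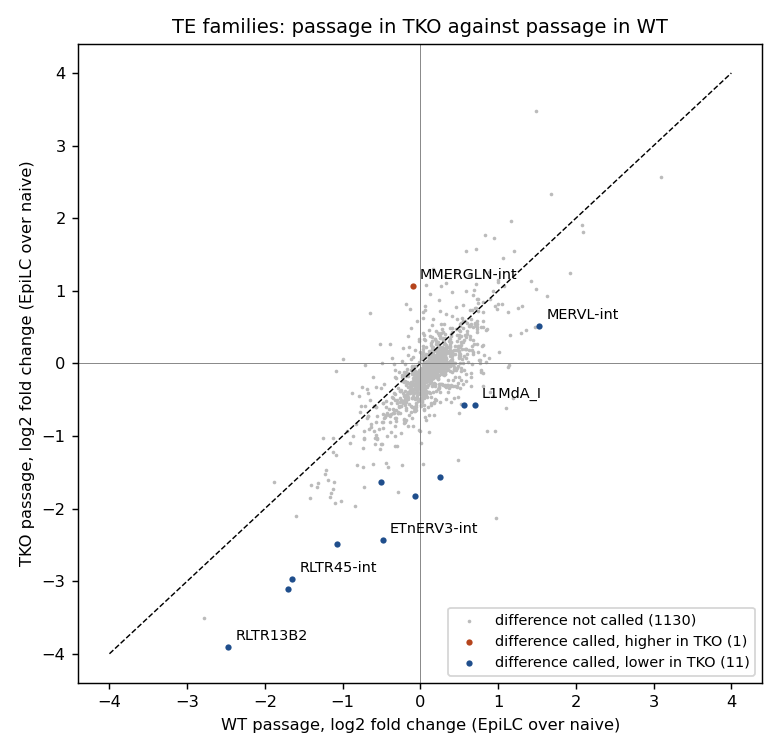
Each point is a TE family, with the log2 fold change from mES cells to EpiLCs in WT on the horizontal axis and in TKO on the vertical axis. The dashed line marks equal change, and 11 families with a called lower passage in TKO lie below it and 1 with a called higher passage above it.

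The passage of 12 families differed from WT (1.05%), with 1 higher (0.0876%) and 11 lower (0.963%). Of the lower families, 9 were called higher in TKO than in WT mES cells, and the median gaps were 1.32 in mES cells and -0.03 in EpiLCs. Over all families, 2.01% differed in mES cells (1.93% higher, 0.0876% lower) and 0.788% in EpiLCs (0.701% and 0.0876%). *RLTR45-int* read 151, 153, 167 and 162 CPM in TKO mES cells and 20.9, 20.6, 18.5 and 20.8 CPM in TKO EpiLCs, against 39.5 to 63.8 and 13.5 to 21.7 CPM in WT cells. The genotypes overlapped in EpiLCs and not in mES cells, and the difference was -1.32 ± 0.18 (adjusted p = 4.7e-06). *ETnERV3-int* read 42, 45.2, 52 and 48.3 CPM before and 8.58, 12, 6.71 and 7.28 CPM after, a difference of -1.95 ± 0.22 (adjusted p = 9.4e-08). A further 6 ERVK families differed by -1.12 to -1.82, of which *RLTR13A1* lost its call with WT libraries 5 to 8 (-1.02, adjusted p = 0.17). The DNA transposon family *ORSL-2a* lost its call without TKO mES library 1 or 4 or TKO EpiLC library 1 (-1.74, adjusted p = 0.074) or 4 and with WT libraries 5 to 8 (-1.51, adjusted p = 0.21). Of the 4 ERVK families named by the study, which were chosen on these samples, 3 had a lower passage.

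The young LINE-1 family *L1MdA_I* read 2060, 1840, 1890 and 1970 CPM in TKO mES cells and 1480, 1240, 1250 and 1250 CPM in TKO EpiLCs. WT cells ranged from 148 to 356 CPM before and 308 to 453 CPM after, and TKO libraries lay above them at both stages. Its change was -0.57 ± 0.18 in TKO and 0.7 ± 0.12 in WT cells, neither called, and the difference was -1.27 ± 0.22 (adjusted p = 1.7e-04). It was the only called difference among 8 young LINE-1 families, whose median difference was -0.51. *MERVL-int*, a retroviral family of the 2-cell stage, went from a mean of 68.2 to 97.3 CPM in TKO and from 64 to 185 CPM in WT cells. Its called difference of -1.01 ± 0.23 was lost without TKO mES library 3 or 4 or TKO EpiLC library 1 (-0.96, adjusted p = 0.051) or 3 and with WT libraries 5 to 8 (-0.52, adjusted p = 0.65). *MMERGLN-int*, the higher family, read 86.4, 80.8, 87 and 86.4 CPM in TKO mES cells and 226, 163, 162 and 160.0 CPM in TKO EpiLCs, against 2.32 to 5.83 and 2.01 to 5.32 CPM in WT cells. Its called difference of 1.16 ± 0.3 (adjusted p = 0.025) was lost without TKO mES library 1, 2, 3 or 4 or TKO EpiLC library 1 (1.04, adjusted p = 0.1) and with WT libraries 5 to 8 (0.89, adjusted p = 0.31).

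**Figure D5:**
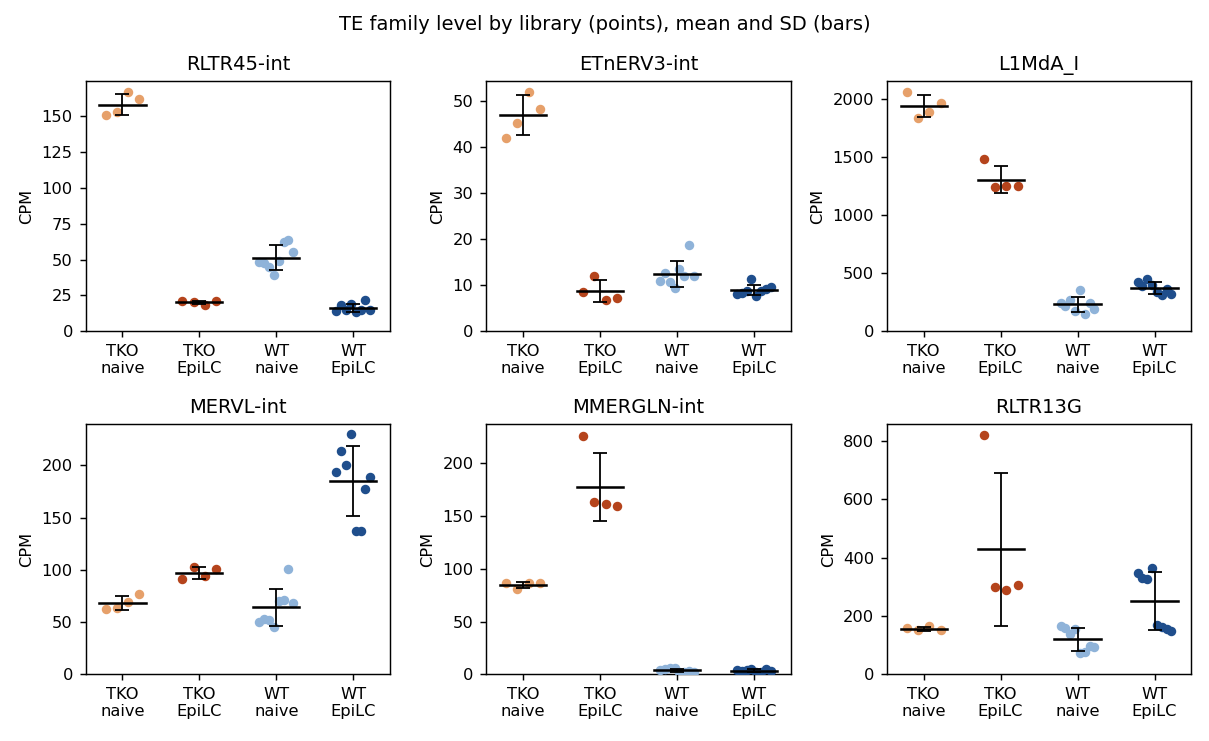
Points are single libraries in CPM, by genotype and stage, with the mean and SD. *RLTR45-int* and *ETnERV3-int* lie higher in TKO than in WT mES cells, and TKO EpiLC library 1 stands apart for *RLTR13G*.

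TEs took 9.26% ± 0.55 (SD, n = 4) of all counts in TKO mES cells and 9.62% ± 0.132 (n = 4) in TKO EpiLCs, and 7.6% ± 0.966 and 8.51% ± 0.985 in WT cells (n = 8 each). The TKO change of 0.358 percentage points had an exact permutation p of 0.257 (two-sided, 70 splits, adjusted over 4 shares 0.257). The LINE share went from 1.62% to 1.48% (exact permutation p = 0.0571, adjusted p = 0.229), the SINE share from 3.86% to 4.23% and the LTR share from 2.27% to 2.4%. The smallest p this design allows is 0.0286.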

How the data were processed

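Total RNA was sequenced after depletion of ribosomal RNA. Deposited values are raw counts. For genes, the authors counted reads with a unique alignment by featureCounts 1.6.4, after cutadapt 2.5 trimmed the leading T overhang and STAR 2.7.10a clipped adapters and aligned reads to the GRCm39 build. For TE families the authors kept multimapped reads and counted them with TEcount, so these counts are per family and not per copy. No source used here gives the strand setting, which leaves overlapping and antisense genes uncertain. A deposited table of uniquely mapped TE counts was not used.

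Counts were tested with edgeR 4.0.16 in R 4.3.3 (quasi-likelihood, TMM, filterByExpr), fitting the 40 libraries as 8 groups. For TE families, genes stayed in the model and p-values were adjusted over the families. A feature was called, or said to rise or fall, at a Benjamini-Hochberg adjusted p under 0.05 and over 2-fold. The difference is the TKO passage minus the WT passage. Values after ± are SE on the log2 scale and SD for shares. The alternatives were DESeq2 1.42.0, other scaling and filters, a replicate block, left-out libraries and each WT set. The scripts were tested on simulated data. Symbols came from GENCODE M39 for 56017 of 56748 identifiers.

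Members and lists were chosen with earlier results of these data known. Named genes were the markers, the lamins, list members, and by size the 10 highest and 10 lowest of the TKO passage and of the difference, among called genes with a mean of 5 CPM in the highest group, a gene symbol, and libraries that did not overlap (between stages for the passage, or between genotypes in at least 1 stage for the difference). TE families followed the same rule with 5 per direction and 1 CPM. *ORSL-2a*, *RLTR13A1* and *ERVB5_1-I_MM* fell outside these rules and were named after their values were seen. Some features that met the rules are not reported here.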

Additional observations from a re-analysis of the deposited data

Results flagged for a closer look

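A test of the difference itself set the TKO passage apart from the WT passage for 440 genes upward and 269 downward, and for 1 TE family upward and 11 downward. Among named genes the difference on the log2 scale was higher in TKO for *Arhgef5* (3.25), *Asz1* (1.35), *Bst2* (1.24), *Cdx1* (2.57), *Cdx2* (4.37), *Col1a2* (2.52), *Cubn* (1.82), *Cyyr1* (3.39), *Dab2* (2.26), *Dppa3* (1.6), *Dusp4* (1.95), *Fgfr2* (2.8), *Fos* (2.24), *Gbx2* (1.41), *H19* (3.08), *Irx3* (3.42), *Krt19* (2.09), *Krt7* (2.07), *Lamb1* (1.15), *Lmna* (1.32), *Neurod1* (1.54), *Parm1* (3.39), *Pax6* (2.25), *Pdgfrb* (1.94), *Peg10* (2.25), *Perp* (1.09), *Phlda2* (1.1), *Rnf43* (1.78), *Sgce* (1.32), *Sox11* (3.32), *Sox21* (1.32), *Sox3* (2.63), *Syne1* (1.15), *Tdrd1* (1.94), *Vrtn* (3.27), *Wnt6* (1.67), *Wnt8a* (2.88), *Zbp1* (1.51), *Zeb2* (2.35). It was lower for *Clgn* (-2.08), *Dcdc2a* (-3.45), *Fn1* (-1.02), *Grhl2* (-1.01), *Hal* (-2.7), *Kdr* (-1.1), *Lmnb1* (-3.34), *Otx2* (-1.74), *Sh2d4a* (-2.12), *Slc38a4* (-2.69), *Snap91* (-2.33), *Thy1* (-1.35), *Uggt2* (-4.29), *Zeb1* (-1.01). For genes with 0 to 3 reads in a group, the adjusted p from edgeR was 0.0045 for *Fgf5*, 1.82e-05 for *Galnt3*, 0.00911 for *H2-T5*, 0.015 for *Khdc1c*, 0.00224 for *Rbbp8nl*, 1.51e-05 for *Rsad2*, 0.0131 for *Usp17le*, 0.0497 for *Vax2os*. Among TE families it was *ERVB4_2-I_MM* (-1.41), *ERVB4_3-I_MM* (-1.82), *ERVB5_1-I_MM* (-1.12), *ETnERV3-int* (-1.95), *L1MdA_I* (-1.27), *MERVL-int* (-1.01), *MMERGLN-int* (1.16), *ORSL-2a* (-1.76), *RLTR10D2* (-1.41), *RLTR13A1* (-1.14), *RLTR13B2* (-1.43), *RLTR45-int* (-1.32).

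Without TKO EpiLC library 1, the call was lost for *Asz1* (1.42, adjusted p = 0.053), *Cdx1* (2.33, adjusted p = 0.12), *Fn1* (-0.92), *Fos* (2.1, adjusted p = 0.074), *Grhl2* (-0.95), *Kdr* (-0.99, adjusted p = 0.058), *Phlda2* (0.97), *Rnf43* (1.77, adjusted p = 0.062), *Zeb1* (-0.95), *Vax2os* (adjusted p = 0.1), *MERVL-int* (-0.96, adjusted p = 0.051), *MMERGLN-int* (1.04, adjusted p = 0.1), *ORSL-2a* (-1.74, adjusted p = 0.074). With WT libraries 1 to 4, the call was lost for *Asz1* (1.05, adjusted p = 0.22), *Cdx2* (-0.28, adjusted p = 0.91), *Col1a2* (0.87, adjusted p = 0.46), *Cubn* (1.14, adjusted p = 0.16), *Fn1* (-0.82), *Fos* (0.78, adjusted p = 0.29), *Gbx2* (0.46, adjusted p = 0.069), *Grhl2* (-0.85), *Lamb1* (1.0), *Otx2* (-0.87), *Rnf43* (0.56, adjusted p = 0.65), *Sgce* (0.87, adjusted p = 0.12), *Syne1* (0.98), *Wnt8a* (1.13, adjusted p = 0.57), *Zbp1* (1.06, adjusted p = 0.21), *Zeb1* (-0.84), *Zeb2* (1.45, adjusted p = 0.08), *Usp17le* (adjusted p = 0.22), *Vax2os* (adjusted p = 0.25). With WT libraries 5 to 8, the call was lost for *Hal* (-2.37, adjusted p = 0.07), *Kdr* (-0.93, adjusted p = 0.092), *Krt7* (1.02, adjusted p = 0.061), *Phlda2* (0.91), *Sox21* (0.99), *MERVL-int* (-0.52, adjusted p = 0.65), *MMERGLN-int* (0.89, adjusted p = 0.31), *ORSL-2a* (-1.51, adjusted p = 0.21), *RLTR13A1* (-1.02, adjusted p = 0.17). With WT libraries 1 to 4, the call held but the fold moved by over 1.5 times for *Cdx1* (1.11), *Dcdc2a* (-2.69), *Krt7* (2.66), *Peg10* (1.14), *Sox3* (1.91), *Vrtn* (1.5). With WT libraries 5 to 8, the call held but the fold moved by over 1.5 times for *Cdx1* (3.43), *Cdx2* (5.34), *Col1a2* (3.36), *Cubn* (2.47), *Dcdc2a* (-5.25), *Otx2* (-3.34), *Peg10* (3.33), *Rnf43* (2.67), *Sh2d4a* (-2.74), *Vrtn* (3.89), *Wnt8a* (3.61), *Zeb2* (2.99). Over all alternatives, the call was lost in 13 of 15 for *Vax2os*, 12 of 15 for *Asz1*, 9 of 15 for *Rnf43*, 7 of 15 for *Fos*, 7 of 17 for *MMERGLN-int*, 6 of 15 for *Grhl2*, 6 of 15 for *Zeb1*, 6 of 17 for *MERVL-int*, 6 of 17 for *ORSL-2a*, 5 of 15 for *Kdr*. With another TKO library left out, it was also lost for *Asz1* (TKO mES library 1, mES library 2, mES library 3, mES library 4, EpiLC library 2, EpiLC library 3, EpiLC library 4), *Kdr* (TKO mES library 3, EpiLC library 2), *Rnf43* (TKO mES library 1, mES library 2, mES library 3, EpiLC library 2, EpiLC library 4), *Zbp1* (TKO mES library 4), *Zeb1* (TKO mES library 4).

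In 7 of 87 groups of 4 TKO libraries, 1 library stood apart from the other 3 by Dixon's test, which chance does in about 1 in 20 groups. *Clgn* was highest in TKO EpiLC library 1, at 7.86 CPM. *L1MdA_I* was highest in TKO EpiLC library 1, at 1480 CPM. *MMERGLN-int* was lowest in TKO mES library 2, at 80.8 CPM. *MMERGLN-int* was highest in TKO EpiLC library 1, at 226 CPM. *RLTR13G* was highest in TKO EpiLC library 1, at 820.0 CPM. *RLTR45-int* was lowest in TKO EpiLC library 3, at 18.5 CPM. *RLTRETN_Mm* was highest in TKO EpiLC library 1, at 242 CPM.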

How the results depend on the processing

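Of 252 named values, 62 changed call or direction under some alternative. Over the alternatives that kept all TKO libraries, TKO cells had 3649 to 4795 rises and 2881 to 3312 falls, and the difference had 365 to 567 higher and 190 to 388 lower genes. With 1 TKO library left out, these were 3892 to 4106, 3065 to 3173, 407 to 426 and 213 to 267. The higher TE families of the difference, 1 as reported, were 0 in the fit of TKO and WT libraries alone, 2 with WT libraries 1 to 4, 0 with WT libraries 5 to 8, 3 with scaling from TE families alone (chosen after seeing the data), and 0 to 1 with 1 TKO library left out. With WT libraries 5 to 8, 9 TE families rose and 29 fell in WT cells. In the fit of TKO and WT libraries alone, 3659 genes rose and 2881 fell in TKO cells, and the difference had 402 higher and 222 lower genes. With the replicate number as a block in that fit, these were 3649, 2907, 391 and 240, and the calls of *Asz1*, *Cdx2*, *Rnf43*, *Usp17le*, *Vax2os* and *Wnt8a* were lost, of which *Usp17le* and *Wnt8a* held without the block. Same-numbered libraries correlated at -0.084 to 0.092 in TKO, where number 1 correlated best with itself, and at 0.007 to 0.451 in WT, where numbers 1, 6 and 7 did. Not every pair passed 0.1, so the numbers were not taken to pair the libraries. The difference changed sign for some named features. With WT libraries 1 to 4 it was -0.527 for *Axin2*, -0.282 for *Cdx2*, -0.31 for *Dcn*, -0.13 for *Lef1*, -0.213 for *Nanog*, -0.25 for *Oas1a*, -0.001 for *RLTRETN_Mm*. With DESeq2 it was -0.219 for *Dcn*, 0.01 for *Stat3*. With WT libraries 5 to 8 it was 0.026 for *Dnmt3b*, -0.041 for *Epcam*, 0.025 for *Pramel30*, 0.286 for *Rigi*, -0.151 for *Sox2*, 0.658 for *Srarp*, 0.043 for *Stat3*, 0.03 for *MMETn-int*. With no filter on low counts it was 0.005 for *Pou5f1*, 0.071 for *Stat3*. With RLE scaling it was 0.01 for *Stat3*. With scaling from TE families alone it was 0.24 for *MMETn-int*. With 1 TKO library left out, it ranged from -0.008 to 0.047 for *Epcam*, -2.285 to 0.691 for *Pramel6*, -0.033 to 0.005 for *Stat3*, -0.028 to 0.024 for *MMETn-int*, -0.116 to 0.54 for *RLTR13G*, -0.216 to 0.249 for *RLTRETN_Mm*. The cause of these changes was not tested. Depth limits genes with 0 to 3 reads in a group, and 1 line per genotype limits every comparison.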
